A study of Trichoderma atroviride IMI 206040 with 36 samples.

Results

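The genes described here are cry-1 (ID.86846 in the deposited table), cry-DASH (ID.285589) and phr-1 (ID.302457) of the filamentous fungus Trichoderma atroviride IMI 206040. They are the 3 genes of the cryptochrome and photolyase family that were picked by their Id among the 11863 predicted transcripts of the deposited table. Their transcript levels were followed in mycelium of the Δblr-1, Δblr-2 and Δenv-1 mutants and of the wild-type strain (WT).

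Photolyases bind ultraviolet lesions in DNA and reverse them with the energy of blue or near-ultraviolet light. PHR-1 is the photolyase for cyclobutane pyrimidine dimers, and CRY-1 is the photolyase for pyrimidine (6-4) pyrimidone photoproducts. CRY-DASH belongs to the DASH-type cryptochromes, relatives of photolyases found in fungi, plants and bacteria that repair mainly dimers in single-stranded DNA. In this fungus blue light is sensed by a complex of the proteins BLR-1 and BLR-2, which correspond to White Collar-1 and White Collar-2 of Neurospora crassa and act as a transcription factor on light-regulated genes. ENVOY, the product of env-1, is a small photoreceptor that corresponds to VIVID of Neurospora crassa, where it dampens the signal of the White Collar complex.

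All strains were grown for 36 h on potato dextrose agar (PDA). The light groups of Δblr-1, Δblr-2, Δenv-1 and WT were exposed once to blue light (200 μmol per square metre), and mycelium was taken 30 min later. The dark groups of the same strains received no light. Each group had 3 libraries, which the study describes as biological replicates. The series also holds Δcry-1 and Δcry-DASH samples, mutants of genes described here, but no name in the table ties a column to either strain, and these 12 columns were not analysed here. The Δenv-1 strain came from a single transformant in which a hygromycin resistance gene replaced the env-1 reading frame. How the Δblr-2 strain was made was not given in the sources used here, and the authors did not use its data. The authors also left out Δenv-1 dark replicate 3, so tests were made on 23 libraries and the values of that library are given apart.

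Depth ranged from 1519254 to 21505809 assigned counts per library over the 23 libraries, with a median of 7843802, and was 22011843 in Δenv-1 dark replicate 3. A count of 3 in a library, taken here as the floor of detection, corresponded to 0.136 to 1.96 CPM depending on the library (CPM is the count of a gene scaled to a common library size), and such limits cover counting error only. The Δenv-1 dark libraries stood apart from each other: a chi-square of their counts per degree of freedom was 98.9 to 578 for pairs within this group, against 2.01 to 38.3 for pairs within every other group. Transcripts of env-1 were still counted in the Δenv-1 libraries, at 241 to 282 CPM in light and 32.4 to 39.8 CPM in darkness, against 106 to 109 CPM in WT light and 1.74 to 2.05 CPM in WT darkness. Per the authors these reads lie in the 3′ untranslated region, which the replacement left in place, so they do not check the deletion. The Ids of blr-1 and blr-2 were not given in the sources used here, and their own transcripts were not analysed. Genes of conidiation moved between the libraries too. Among dark libraries, a hydrophobin gene measured 375, 9.88 and 538 CPM for replicates 1, 2 and 3 of Δenv-1, against 79.1, 32.9 and 244 CPM for those of WT. After light, 3 conidiation genes (hydrophobin, alb-1, cmp-1) were lower in each mutant than in WT, with adjusted p at most 0.05 in edgeR. Median log2 differences were -3.92 in Δblr-1, -3.44 in Δblr-2 and -3.91 in Δenv-1. Of all genes, 13.9% were so lower in Δblr-1 and 22.8% in Δblr-2, and 15.5% differed either way in Δenv-1. In Δenv-1 the 3 genes were also lower in light than in darkness (median log2 -3.79). The part of conidiation in the levels below was not tested.

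phr-1, the dimer photolyase gene, was induced by light in WT and did not pass the test of a light response without either BLR gene. In WT, phr-1 was at 946, 956 and 873 CPM in light, against 378, 375 and 351 CPM in darkness. All light libraries lay far above all dark ones, and the mean of 925 ± 45.3 CPM in light was 2.51 times that of 368 ± 15.0 CPM in darkness (SD, n = 3 each). In such bulk mycelium a change in the share of cells that express a gene cannot be told apart from a change per cell. The log2 fold change was 1.33 (SE 0.08), with an adjusted p of 7.44e-11 in edgeR's quasi-likelihood test (Benjamini-Hochberg, 9605 genes tested). To be called, a light response needed an adjusted p no higher than 0.05 and a log2 fold change of 1 or more in size. In WT all 3 of the genes described here were called higher in light, as were 0.927% of all genes tested. The study had already reported these 3 genes as light-induced from the same libraries, so this count is no independent evidence.

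In Δblr-1, phr-1 was at 372, 384 and 311 CPM in light, against 376, 389 and 355 CPM in darkness. In Δblr-2, it was at 342, 365 and 369 CPM in light, against 348, 350 and 290 CPM in darkness. Light and dark libraries overlapped in both mutants, all near the dark level of WT. Log2 fold changes were -0.07 in Δblr-1 (95% interval -0.23 to 0.10, adjusted p = 0.831 in edgeR) and 0.14 in Δblr-2 (95% interval -0.03 to 0.30, adjusted p = 0.183 in edgeR). These intervals leave room for a rise of at most 0.30 on the log2 scale, against the 1.33 measured in WT. The light responses themselves differed between mutant and WT, by -1.40 for Δblr-1 (SE 0.11, adjusted p = 2.14e-08 in edgeR) and by -1.19 for Δblr-2 (SE 0.11, adjusted p = 1.42e-07 in edgeR). A light response lower than in WT was called for 0.864% of all genes tested in Δblr-1 and for 7.85% in Δblr-2. These shares had no fold minimum and were not limited to the 0.927% of genes called higher in WT light. The level of phr-1 after light was likewise lower in Δblr-1 than in WT (log2 -1.38, adjusted p = 4.24e-11 in edgeR) and lower in Δblr-2 than in WT (log2 -1.36, adjusted p = 1.16e-11 in edgeR). After light, 13.9% of all genes were called lower in Δblr-1 than in WT and 22.8% in Δblr-2.

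In Δenv-1, phr-1 was at 1083, 1019 and 991 CPM in light, against 353 and 343 CPM in the dark libraries tested and 323 CPM in dark replicate 3. Light over darkness gave a log2 fold change of 1.58 (SE 0.09, adjusted p = 4.42e-11 in edgeR), and all 3 genes described here were called higher in Δenv-1 light, beside 0.968% of all genes. This count too is no independent evidence, since the genes were picked with earlier results of these data known. All Δenv-1 light libraries lay above the highest WT light library, 956 CPM, by a small margin. The mean after light was 1031 ± 47.0 CPM in Δenv-1 and 925 ± 45.3 CPM in WT (SD, n = 3 each), a log2 difference of 0.16 (95% interval -0.0036 to 0.32) that did not pass the test (adjusted p = 0.186 in edgeR). Between these groups 15.5% of all genes were called in either direction. The light response of phr-1 was larger in Δenv-1 than in WT by 0.25 on the log2 scale, with an unadjusted p of 0.0444 and an adjusted p of 1 in edgeR, so a difference was not called. Set side by side by replicate number, light was 3.07, 2.97 and 3.07 times darkness in Δenv-1 and 2.50, 2.55 and 2.49 times darkness in WT for replicates 1, 2 and 3, with the untested dark library in the third ratio of Δenv-1.

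**Figure D1:**
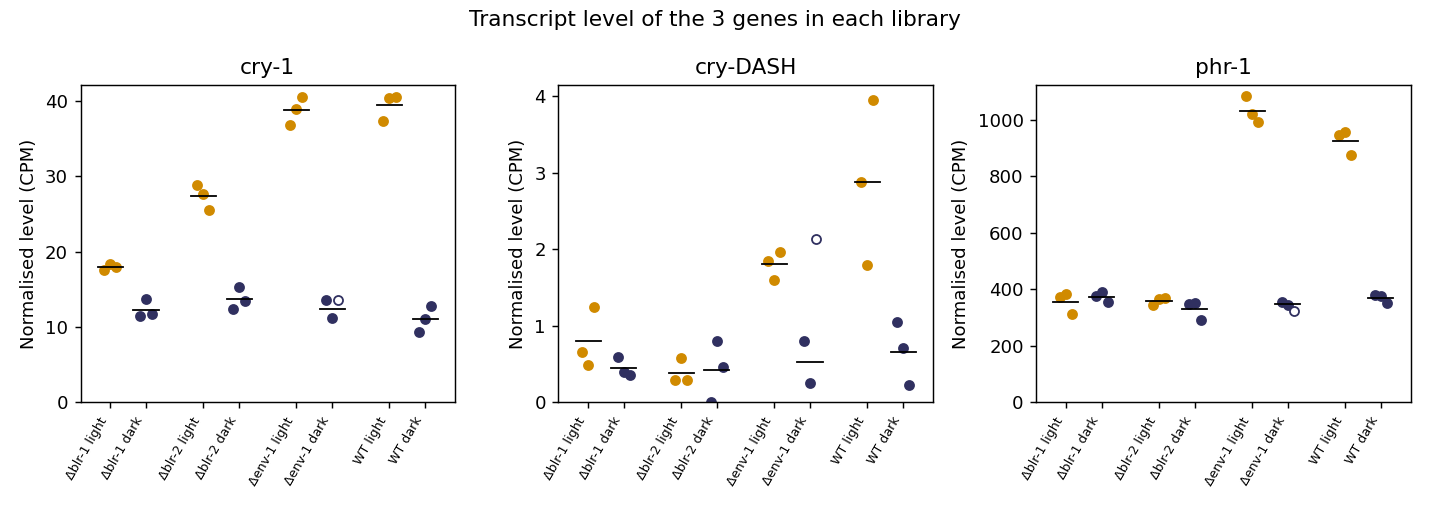
Normalised level (CPM, linear axes from 0) of cry-1, cry-DASH and phr-1 in every library, by strain and treatment. Filled points are libraries in the tests, the open point is Δenv-1 dark replicate 3 and lines are means of the filled points; phr-1 in both Δblr mutants stayed between 290 and 389 CPM, while cry-1 in light lay above darkness in all 4 strains.

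cry-1, the (6-4) photolyase gene, was induced by light in WT and responded less in both mutants of the BLR complex, where its light libraries nevertheless all lay above the dark ones. In WT, cry-1 was at 37.4, 40.5 and 40.6 CPM in light, against 9.37, 11.1 and 12.8 CPM in darkness. The means were 39.5 ± 1.81 CPM in light and 11.1 ± 1.70 CPM in darkness (SD, n = 3 each), a log2 fold change of 1.85 (SE 0.11, adjusted p = 6.62e-11 in edgeR). It was the 57th highest fold change among the genes tested.

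In Δblr-1, cry-1 was at 17.6, 18.4 and 17.9 CPM in light, against 11.5, 13.7 and 11.7 CPM in darkness. These were 27, 375 and 86 counts in light and 59, 211 and 66 counts in darkness. All light libraries lay above all dark libraries, with replicate ratios of 1.53, 1.34 and 1.54. How many of all genes were separated in this way was not counted, here or for the other groups. The log2 fold change of 0.54 (SE 0.11, 95% interval 0.30 to 0.77) had an adjusted p of 0.0188 in edgeR but was below the minimum of 1, so the gene was not called. Over all genes, 0.135% were called higher in Δblr-1 light (13 genes, or 23 with the replicate number as a block within strains), and 0.552% passed the adjusted p alone in that direction. The adjusted p was no longer under 0.05 when any of 4 Δblr-1 libraries was left out. It was 0.0775 without Δblr-1 dark replicate 1, 0.0713 without dark replicate 3, 0.172 without light replicate 2 and 0.0564 without light replicate 3, with log2 fold changes of 0.50 to 0.54.

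In Δblr-2, cry-1 was at 28.8, 27.7 and 25.6 CPM in light, against 12.4, 15.2 and 13.4 CPM in darkness. Light was again above darkness in every library, with replicate ratios of 2.32, 1.82 and 1.91. The log2 fold change was 0.99 (SE 0.10, 95% interval 0.77 to 1.20, adjusted p = 1.61e-07 in edgeR), just below the minimum of 1. It reached the minimum when Δblr-2 dark replicate 2 was left out (log2 1.07) or light replicate 3 (log2 1.03). Many genes moved in this mutant, where 6.01% of all genes were called higher in light and 20.8% passed the adjusted p alone in that direction, so a response of cry-1 in Δblr-2 was one among many.

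The light response of cry-1 was smaller than that of WT by 1.31 on the log2 scale in Δblr-1 (difference -1.31, SE 0.16, adjusted p = 1.56e-05 in edgeR) and by 0.86 in Δblr-2 (difference -0.86, SE 0.15, adjusted p = 0.000301 in edgeR). After light, cry-1 was at 17.97 ± 0.395 CPM in Δblr-1, 27.4 ± 1.66 CPM in Δblr-2 and 39.5 ± 1.81 CPM in WT (SD, n = 3 each). The SD of Δblr-1 is small beside the counting error of its light replicate 1, which held 27 counts. Both mutants were lower than WT, by log2 differences of -1.13 for Δblr-1 (adjusted p = 9.02e-08) and -0.52 for Δblr-2 (adjusted p = 0.000104) in edgeR. The response of Δblr-2 exceeded that of Δblr-1 by 0.45 on the log2 scale (95% interval 0.13 to 0.77), with an adjusted p of 0.0505 in edgeR, at the edge of the threshold. Leaving out 1 library at a time moved this p between 0.0356 and 0.199, and 8 of 23 omissions brought it under 0.05. Between these mutants 15.7% of all genes differed in their light response.

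In Δenv-1, cry-1 was at 36.9, 38.9 and 40.5 CPM in light, against 13.5 and 11.2 CPM in the dark libraries tested and 13.5 CPM in dark replicate 3. Light over darkness gave a log2 fold change of 1.68 (SE 0.11, adjusted p = 7.6e-10 in edgeR), and the light libraries of Δenv-1 and WT overlapped. The light responses differed by -0.16 (95% interval -0.49 to 0.17, adjusted p = 1 in edgeR), and the levels after light by -0.02 (95% interval -0.21 to 0.17, adjusted p = 0.917 in edgeR).

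**Figure D2:**
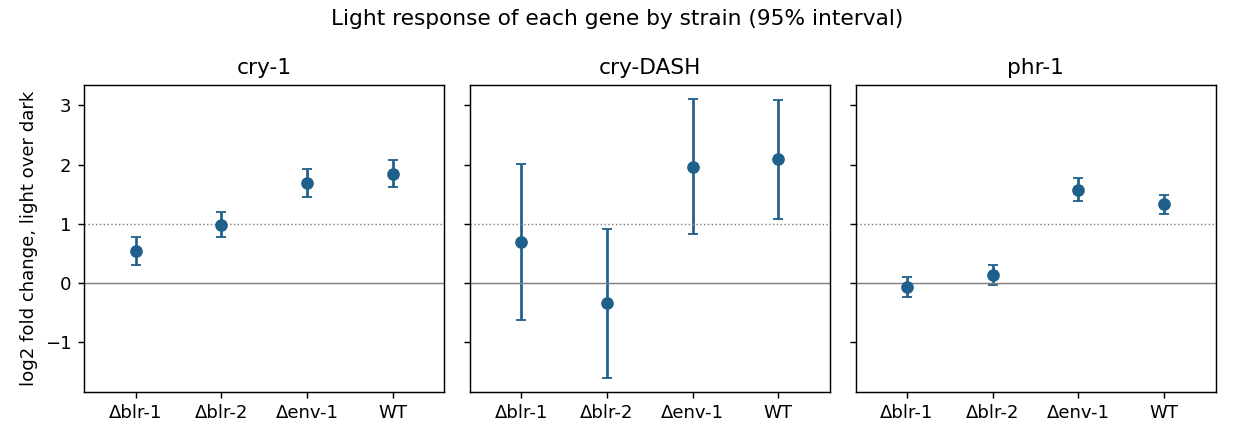
Log2 fold change of light over dark for each gene in Δblr-1, Δblr-2, Δenv-1 and WT, from the edgeR fit of 23 libraries, with 95% intervals; the solid line marks 0 and the dotted line the minimum of 1. cry-1 lay at 0.54 in Δblr-1 and 0.99 in Δblr-2 with intervals above 0, phr-1 lay at -0.07 and 0.14 with intervals across 0, and cry-DASH had the widest intervals.

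cry-DASH was counted at far lower depth, with 248 counts over the 23 libraries, and its results were the least certain. In WT it had 31, 14 and 70 counts in light, or 2.88, 1.80 and 3.95 CPM, against 6, 4 and 1 counts in darkness, or 1.04, 0.703 and 0.228 CPM. All WT light libraries lay above all WT dark libraries. The log2 fold change of 2.09 (SE 0.48, 95% interval 1.08 to 3.10, adjusted p = 0.00904 in edgeR) was called. Without WT light replicate 3 it was 1.77 with an adjusted p of 0.0588. The gene passed the filter on low counts because 7 of the 23 libraries reached 1.27 CPM. This cutoff used library totals only, unlike the TMM-normalised levels printed here. The 7 were the 3 WT light, the 3 Δenv-1 light and 1 Δblr-1 light library, so the gene was tested through the groups where it was high.

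In Δblr-1, cry-DASH had 1, 10 and 6 counts in light, or 0.652, 0.490 and 1.25 CPM, against 3, 6 and 2 counts in darkness, or 0.585, 0.389 and 0.353 CPM. In Δblr-2, it had 2, 7 and 2 counts in light, or 0.288, 0.572 and 0.284 CPM, against 0, 9 and 10 counts in darkness, or 0, 0.802 and 0.452 CPM. Light and dark libraries overlapped in both mutants, and several of these counts were at or under the floor of 3. Log2 fold changes were 0.69 in Δblr-1 (95% interval -0.62 to 2.0, adjusted p = 0.748 in edgeR) and -0.34 in Δblr-2 (95% interval -1.60 to 0.91, adjusted p = 0.703 in edgeR). The interval of Δblr-1 reached close to the WT value, so a remaining response could not be detected or set aside at this depth.

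The difference from the WT light response was -1.40 in Δblr-1 (95% interval -3.14 to 0.34), which did not pass the test (adjusted p = 0.657 in edgeR). In Δblr-2 the difference was -2.43 (95% interval -4.07 to -0.79, adjusted p = 0.0336 in edgeR). It was no longer called when any of 6 libraries was left out, namely WT light replicate 3, WT dark replicates 2 and 3, Δblr-2 light replicates 1 and 3 and Δblr-2 dark replicate 2, with adjusted p-values of 0.0569 to 0.134. After light, cry-DASH was at 0.798 ± 0.401 CPM in Δblr-1, 0.381 ± 0.165 CPM in Δblr-2 and 2.88 ± 1.08 CPM in WT (SD, n = 3 each). All WT light libraries reached the cutoff of the filter and no Δblr-2 library did. These tests thus rest on a gene let through by the group that was higher, and are no independent evidence. The log2 differences from WT were -2.09 for Δblr-1 (adjusted p = 0.00273 in edgeR) and -2.80 for Δblr-2 (adjusted p = 5.33e-05 in edgeR). That of Δblr-1 was -1.43 with an adjusted p of 0.103 without Δblr-1 light replicate 2.

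In Δenv-1, cry-DASH had 11, 23 and 20 counts in light, or 1.85, 1.60 and 1.96 CPM, against 6 and 4 counts in the dark libraries tested, or 0.795 and 0.255 CPM. The log2 fold change of 1.97 (SE 0.55, adjusted p = 0.0414 in edgeR) was called, but only just. Dark replicate 3 had 35 counts, or 2.13 CPM, above every light library of this strain. With it in the fit the log2 fold change was 0.70 with an adjusted p of 0.501. Leaving out 1 library at a time moved the adjusted p between 0.0254 and 0.454, and 9 of 23 omissions ended the call. The largest loss came without Δenv-1 dark replicate 2, where the log2 fold change was 1.17. Within the Δenv-1 dark group, cry-DASH at 0.795, 0.255 and 2.13 CPM in replicates 1, 2 and 3 stood in the same order as 3 conidiation genes in those libraries. Those were at 375, 9.88 and 538 CPM for the hydrophobin gene, at 66.5, 2.29 and 115 CPM for alb-1 and at 203, 7.52 and 301 CPM for cmp-1. In WT darkness the order was not shared, with cry-DASH at 1.04, 0.703 and 0.228 CPM in replicates 1, 2 and 3 beside the hydrophobin gene at 79.1, 32.9 and 244 CPM. In WT light all 3 conidiation genes stood in the order of cry-DASH. There cry-DASH was at 2.88, 1.80 and 3.95 CPM, beside the hydrophobin gene at 103, 14.1 and 175 CPM. In each remaining group at most some of the conidiation genes did so. The part of these genes in the cry-DASH level was not tested. Against WT, Δenv-1 had a lower mean after light (1.80 ± 0.182 CPM in Δenv-1 and 2.88 ± 1.08 CPM in WT; SD, n = 3 each), a log2 difference of -0.73 (95% interval -1.50 to 0.04) that did not pass the test (adjusted p = 0.203 in edgeR).

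In darkness, none of the 3 genes was called different from WT in any mutant by edgeR's quasi-likelihood test, its likelihood ratio test or DESeq2. At an unadjusted p under 0.05 these counted 2, 1 and 2 of the 9 comparisons, all in Δblr-2. There cry-1 was at 13.7 ± 1.43 CPM in Δblr-2 and 11.1 ± 1.70 CPM in WT (SD, n = 3 each), a log2 difference of 0.34 (95% interval 0.09 to 0.59, adjusted p = 0.0588 in edgeR). Without WT dark replicate 3 this difference was 0.44 with an adjusted p of 0.0278. phr-1 was at 329 ± 34.1 CPM in Δblr-2 and 368 ± 15.0 CPM in WT, a log2 difference of -0.17 with an adjusted p of 0.188. Over all genes, 9.59% were called in darkness between Δblr-1 and WT, 14.7% between Δblr-2 and WT and 4.5% between Δenv-1 and WT. The dark libraries of cry-1 thus spanned 9.37 to 15.2 CPM and those of phr-1 290 to 389 CPM over all 4 strains.

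Ranked by mean, cry-1 in light fell in the order WT, Δenv-1, Δblr-2 and Δblr-1, and the 4 dark groups followed. The libraries of WT and Δenv-1 overlapped, those of Δenv-1 and Δblr-2, of Δblr-2 and Δblr-1, and of Δblr-1 light and the highest dark group did not, and neighbouring dark groups overlapped. For phr-1 the order began with Δenv-1 light and WT light, which did not overlap, and WT light was separated from all further groups, which overlapped their neighbours. For cry-DASH, WT light and Δenv-1 light overlapped, Δenv-1 light was separated from Δblr-1 light, and all lower neighbours overlapped.

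The ratio of a pair of these genes within a library does not depend on how libraries are scaled, but 0.5 was added to each count. With the few counts of cry-DASH, this addition makes its ratios depend on depth. The log2 ratio of cry-1 to phr-1 was -4.55 ± 0.117 in WT light and -5.05 ± 0.277 in WT darkness (SD, n = 3 each). It was -4.73 ± 0.133 in Δenv-1 light (SD, n = 3) and -4.82 ± 0.169 in Δenv-1 darkness (SD, n = 2). Averaged over both strains, light exceeded darkness by 0.30, with p = 0.05 before and p = 0.15 after adjustment over the 3 pairs in an exact two-sided permutation test within strains (200 arrangements, smallest possible p = 0.005). The ratio of cry-1 to cry-DASH differed by -0.23 (adjusted p = 0.585, exact permutation test) and that of cry-DASH to phr-1 by 0.53 (adjusted p = 0.352, exact permutation test). With samples paired by their number (3 pairs in WT and 2 in Δenv-1), light minus darkness for cry-1 over phr-1 was 0.66, 0.51 and 0.34 in the WT pairs and -0.18 and 0.23 in the Δenv-1 pairs. The mean of 0.31 had an adjusted p of 0.375 in an exact permutation of signs, whose smallest possible p before adjustment is 0.0625, so the paired test could not pass. In the BLR mutants, which this test did not cover, the ratio of cry-1 to phr-1 was -4.29 ± 0.155 in Δblr-1 light and -4.92 ± 0.096 in Δblr-1 darkness, and -3.71 ± 0.140 in Δblr-2 light and -4.58 ± 0.185 in Δblr-2 darkness (SD, n = 3 each). Light and dark libraries did not overlap in either BLR mutant or in WT, and overlapped in Δenv-1.

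**Figure D3:**
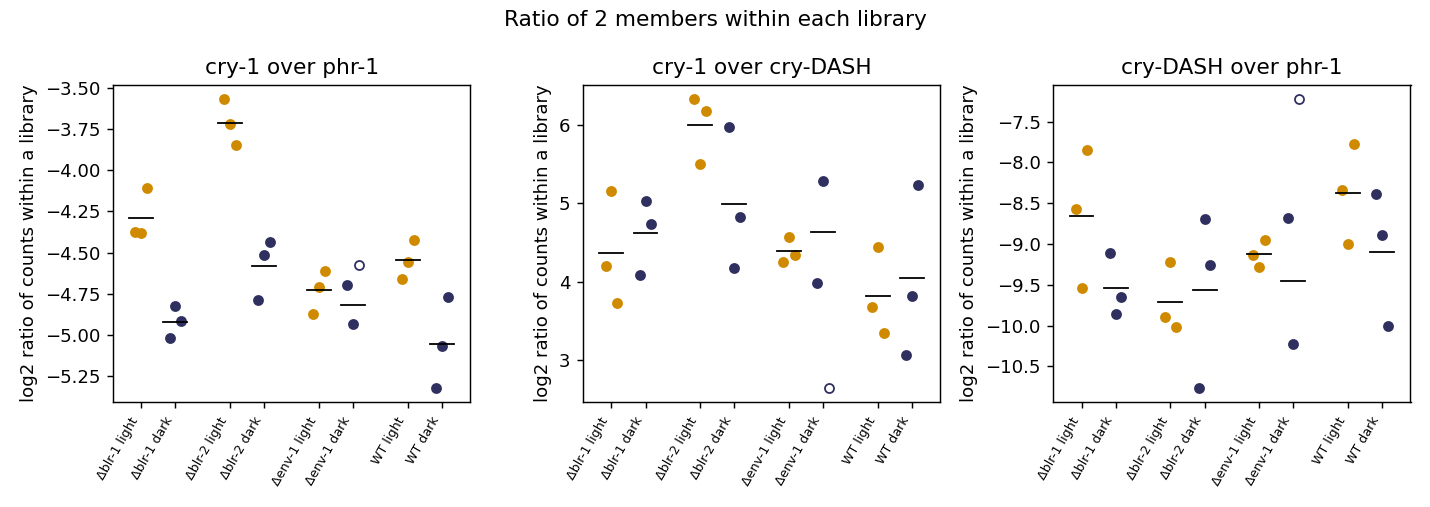
Log2 ratio of the counts of 2 genes within each library (each count + 0.5), by strain and treatment, with points and lines as in the plot of levels. The ratio of cry-1 to phr-1 in light lay above darkness in all libraries of Δblr-1, Δblr-2 and WT, and the ratios with cry-DASH scattered within groups. The open point of Δenv-1 dark replicate 3 was the lowest of its group for cry-1 over cry-DASH and the highest for cry-DASH over phr-1.

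Other light-regulated genes that the study names give the setting for these responses. The study chose them partly on these libraries, so their directions are no independent evidence. In WT, 4 of the 5 were called higher in light, namely env-1, blu-1, the clock gene frq and tmk-3, which encodes a stress-activated MAP kinase, and bld-2 was called lower. Their median log2 fold change was 2.25, against 0.00 over all genes tested. In Δblr-1 none of the 5 was called by edgeR's quasi-likelihood test, its likelihood ratio test or DESeq2. At an unadjusted p under 0.05 these counted 1, 2 and 1 of the 5, and the list's median was -0.06.

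In Δblr-2 these light genes did not all behave alike. blu-1, an orthologue of grg-1 of Neurospora crassa, was at 142, 76.1 and 66.6 CPM in Δblr-2 light, against 6.0, 2.94 and 3.94 CPM in Δblr-2 darkness, and was called higher (log2 4.65, SE 0.29, adjusted p = 1.06e-10 in edgeR). tmk-3 was at 386, 300.5 and 312 CPM in Δblr-2 light, against 184 to 202 CPM in Δblr-2 darkness (log2 0.76, adjusted p = 5.22e-08 in edgeR), below the fold minimum. Like cry-1, both were above darkness in every library, and both responded less than in WT, by differences of -3.11 for blu-1 (adjusted p = 0.000179) and -0.66 for tmk-3 (adjusted p = 9.2e-05) in edgeR. By contrast frq was at 44.7 to 57.7 CPM in Δblr-2 light and 51.3 to 56.8 CPM in Δblr-2 darkness, and env-1 was at 0.432 to 1.06 CPM in light and 0.80 to 1.34 CPM in darkness. bld-2 was lower in every light library of Δblr-2, at 1317 to 1695 CPM in light and 1954 to 2298 CPM in darkness (log2 -0.54, adjusted p = 0.00733 in edgeR), also below the fold minimum, and this differed from the WT response by 1.14 (adjusted p = 0.000575). In Δblr-1 blu-1 was at 4.17 to 7.82 CPM in light and 2.79 to 3.88 CPM in darkness (log2 0.61, adjusted p = 0.66 in edgeR), and tmk-3 at 171 to 180 CPM in light and 174 to 192 CPM in darkness. cry-1 was the only one of these genes and of the members to pass the adjusted p in Δblr-1.

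**Figure D4:**
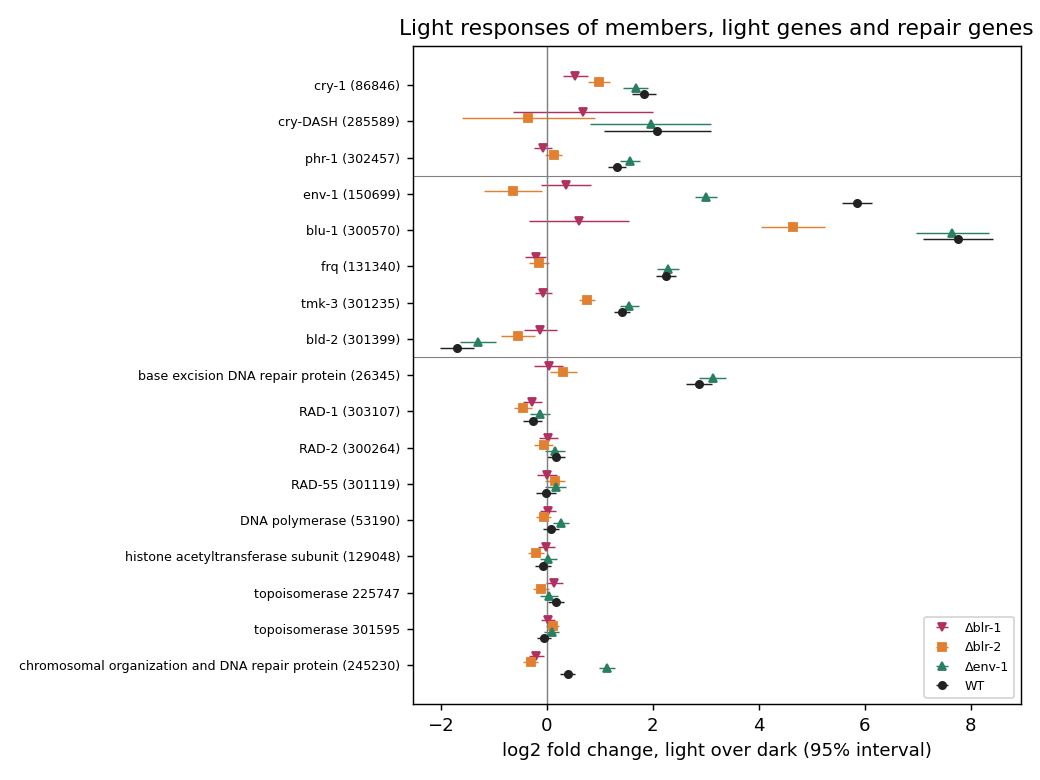
Log2 fold change of light over dark (95% intervals) for cry-1, cry-DASH and phr-1 (top), 5 other light genes (middle) and 9 DNA repair and DNA metabolism genes named by the study (bottom), with a symbol per strain. In Δblr-2, cry-1, blu-1 and tmk-3 lay between 0 and their WT values, while most repair genes lay near 0 in all 4 strains.

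Among 9 further genes of DNA repair and DNA metabolism that the study names, also chosen on these libraries, the light response of the photolyases was shared by few. In WT only the gene of a base excision DNA repair protein was called, at 62.3, 66.4 and 65.4 CPM in light, against 9.19, 8.27 and 8.89 CPM in darkness (log2 2.88, SE 0.12, adjusted p = 9.56e-14 in edgeR). The list's median log2 fold change was 0.08 in WT. Like phr-1, this gene lost its response in Δblr-1 (difference from WT -2.84, adjusted p = 4.51e-10 in edgeR) and most of it in Δblr-2 (difference from WT -2.56, adjusted p = 7.82e-10 in edgeR). In Δblr-2 it was at 11.5 to 13.8 CPM in light, against at most 10.2 CPM in darkness (log2 0.32, adjusted p = 0.0452 in edgeR), below the fold minimum. RAD-1, RAD-2 and RAD-55, repair genes of nucleotide excision and recombination in yeast, were not called in any strain, with log2 fold changes of -0.26, 0.18 and -0.01 in WT. In Δblr-1 and Δblr-2 none of the 9 was called by any of the 3 tests, and by each test 2 of 9 in Δblr-1 and 4 of 9 in Δblr-2 had an unadjusted p under 0.05.

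In Δenv-1, 2 of these 9 genes were called higher in light, the base excision repair gene and a gene for a chromosomal organization and DNA repair protein. A DNA polymerase gene passed the adjusted p below the fold minimum there (log2 0.27, adjusted p = 0.0398 in edgeR). All 9 genes lay above WT in Δenv-1 after light, by a median log2 difference of 0.10, and 2 passed the adjusted p. After light, the base excision repair gene was at 88.3 to 96.5 CPM in Δenv-1, against 62.3 to 66.4 CPM in WT (log2 0.51, adjusted p = 0.000929 in edgeR). The level of the chromosomal organization gene in light was 174, 170 and 159 CPM for Δenv-1, against 102, 92.1 and 100.1 CPM in WT light (log2 0.77, adjusted p = 2.34e-07 in edgeR). Its light response in WT passed the adjusted p below the fold minimum (log2 0.40, adjusted p = 0.00045 in edgeR). The response in Δenv-1 exceeded that of WT by 0.75 on the log2 scale (SE 0.10, adjusted p = 0.00091 in edgeR). This gene and env-1 were the 2 genes, or 0.0208% of all tested, whose light response differed between Δenv-1 and WT. Neither cry-1, cry-DASH nor phr-1 was among them. The count was 6 with the replicate number as a block within strains.

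The genes whose log2 CPM followed each member most closely over the 24 libraries were found by Pearson correlation, as a description only, since libraries share strain, treatment and scaling. For cry-1 they were blu-1 (r = 0.953), 139793 (r = 0.936) and 38632 (r = 0.933). For phr-1 they were 206334 and 301320 (r = 0.988 each) and 153516 (r = 0.984), and for cry-DASH 300913 (r = 0.82), 54811 (r = 0.799) and 298329 (r = 0.787). By rank correlation the values for phr-1 were 0.626, 0.733 and 0.464 in the same order of genes, and most of its libraries lay in a narrow band around the dark level. The choice of genes depended on the setting. By rank correlation the closest to cry-1 were 139793 (0.908), 38632 (0.857) and 158454 (0.853), without blu-1. Without the Δblr-2 libraries blu-1 was again not among the closest 3 to cry-1, and those of cry-DASH were 51313, 212433 and 127784, none of which was among its 3 over all 24 libraries. Among the members, r was 0.818 for cry-1 and phr-1, 0.704 for cry-DASH and phr-1 and 0.591 for cry-1 and cry-DASH over the 24 libraries.

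The order of genes was taken from the RefSeq annotation of strain P1 (assembly ASM2064779v1), another strain than the one studied. The next gene to phr-1 on one side, 295995, was at 17.9 ± 1.47 CPM in WT light and 11.4 ± 1.39 CPM in WT darkness (SD, n = 3 each), a log2 fold change of 0.65 (SE 0.15, adjusted p = 0.00925 in edgeR) below the fold minimum. The gene on the other side, 259787, had a log2 fold change of -0.21 (adjusted p = 0.274 in edgeR). Beside cry-1, 300194 had a log2 fold change of 0.21 (adjusted p = 0.173 in edgeR), while 35490 beside cry-1 and 276331 beside cry-DASH had means under 0.1 CPM in WT light and were not tested. None of these neighbours was called.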

How the data were processed

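RNA was sequenced from T. atroviride mycelium of 6 strains, in light and darkness, of which 4 are analysed here. Per the authors, FastQC was used for read quality and kallisto to place reads on predicted transcripts of genome version 2 (tool versions are not given in the sources used here), and the deposited values are estimated counts (expected counts), neither normalised nor filtered. Of 36 columns, 24 were matched to samples by name, and 12 could not be matched, so the Δcry-1 and Δcry-DASH samples were not analysed here. Counts were rounded, since 8.35% were not whole, kept by filterByExpr with a minimum count of 10, scaled by TMM and fitted with a mean per strain and treatment by edgeR 4.0.16 (R 4.3.3), using its quasi-likelihood F test and Benjamini-Hochberg adjustment over 9605 genes. The study used edgeR's likelihood ratio test at the same thresholds. CPM are TMM-normalised over 24 libraries, and correlations used log2 CPM with a prior count of 2. Ratios used counts plus 0.5. The fits were tested on simulated data.

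Replicates are biological per the series text. Same-numbered light and dark samples deviated together from their group means over 9534 genes, with correlations of 0.173, 0.108 and 0.115 in Δenv-1, 0.129, 0.207 and 0.122 in Δblr-1 and 0.219, 0.534 and 0.361 in WT, all over 0.1, so the numbers of the labels were taken to pair samples there. In Δblr-2 they were -0.00172, 0.0781 and 0.0407. Some unlike-numbered WT samples also correlated, at 0.211 for light 3 with dark 1 and 0.17 for light 1 with dark 3. The main fit used no replicate block. Alternatives were RLE or no scaling, other filters, the likelihood ratio test, DESeq2 1.42.0, other sets of libraries, unrounded counts and replicate blocks.

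Ids in the table are 86846 (cry-1), 285589 (cry-DASH), 302457 (phr-1), 26345 (base excision repair), 245230 (chromosomal organization) and 258295 (hydrophobin). The members and lists were chosen with earlier results of these data known. Named genes are the members, genes given with an Id in the study, the 3 closest by correlation and the nearest annotated neighbours. A search for related proteins was not run, and no sequences or gene lengths were used, so levels are not compared between genes.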

Additional observations from a re-analysis of the deposited data

Results flagged for a closer look

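The light response differed between a mutant and WT in 5 of the comparisons of cry-1, cry-DASH and phr-1, each tested as a difference of log2 fold changes in edgeR. These were 2 of the 3 genes in Δblr-1 and all 3 in Δblr-2, each lower than in WT, and none in Δenv-1. The study had already reported these genes as light-induced through BLR-1 from the same WT and Δblr-1 libraries. These counts are therefore no independent evidence. Over all genes tested, a lower light response than in WT was called for 0.864% in Δblr-1 and 7.85% in Δblr-2. For Δenv-1, 0.0208% were called in either direction. The difference from WT was -1.31 for cry-1 in Δblr-1 (adjusted p = 1.56e-05) and -0.86 for cry-1 in Δblr-2 (adjusted p = 0.000301), in both cases with light above darkness in all libraries of the mutant. It was -1.40 for phr-1 in Δblr-1 (adjusted p = 2.14e-08) and -1.19 for phr-1 in Δblr-2 (adjusted p = 1.42e-07), with overlapping light and dark libraries in each mutant. For cry-DASH it was -2.43 in Δblr-2 (adjusted p = 0.0336), on 0 to 10 counts in each Δblr-2 library. No Δblr-2 library reached the cutoff of the filter, so cry-DASH was tested through groups where it was high. Separation of light and dark libraries was not counted over all genes.

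A library outside the comparisons, Δenv-1 dark replicate 3, had cry-DASH at 2.13 CPM, above the highest WT dark library, 1.04 CPM. The same library had the highest levels of the 3 conidiation genes, with the hydrophobin gene at 538 CPM, and its levels of cry-1 (13.5 CPM) and phr-1 (323 CPM) were near those of the other dark libraries.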

How the results depend on the processing

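The light responses of cry-1 and phr-1 in WT and Δenv-1 kept direction and call under every alternative run. So did their smaller responses in both Δblr mutants than in WT and their lower levels there after light. cry-1 in Δblr-2 against Δblr-1 was called with RLE scaling (0.45, adjusted p = 0.0487), with the likelihood ratio test (0.46, adjusted p = 0.0406) and with Δenv-1 dark replicate 3 included (0.45, adjusted p = 0.0465). In darkness, cry-1 in Δblr-2 against WT was called with library totals as the only scaling (0.37, adjusted p = 0.0435). For cry-DASH, the light response of Δenv-1 was lost with DESeq2 (1.94, adjusted p = 0.0938), with Δenv-1 dark replicate 3 included (0.70, adjusted p = 0.501) and without the Δblr-2 libraries (1.95, adjusted p = 0.0514). Its difference between Δblr-2 and WT was lost with that dark library included (-2.43, adjusted p = 0.0851). DESeq2 gave no adjusted p for cry-DASH in the differences of Δblr-1 and Δblr-2 from WT, nor for its WT response. With the same library, cry-DASH in darkness in Δenv-1 against WT turned to 0.67, and the log2 ratio of cry-1 to cry-DASH to 0.10. The cause was not tested.

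Leaving out 1 library at a time changed the call or the direction of these results, given as lowest and highest log2 values. For cry-1 the light response was 0.94 to 1.07 in Δblr-2, the difference of Δblr-2 from Δblr-1 was 0.34 to 0.53, Δblr-2 against WT in darkness was 0.23 to 0.44 and Δenv-1 against WT after light was -0.061 to 0.0052. For cry-DASH the light response was 1.75 to 2.56 in WT, 1.17 to 2.76 in Δenv-1 and -0.84 to 0.096 in Δblr-2. Its difference from the WT response was -2.93 to -1.99 in Δblr-2 and -0.93 to 0.66 in Δenv-1. Against WT, cry-DASH was -0.81 to 0.10 in Δblr-2 darkness, -1.39 to 0.20 in Δenv-1 darkness and -2.53 to -1.43 in Δblr-1 after light. For phr-1 the light response in Δblr-1 was -0.13 to 0.015 and Δblr-1 against WT in darkness was -0.015 to 0.048. The log2 ratio of cry-1 to cry-DASH was -0.56 to 0.096.

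The replicate number as a block changed no call of the 3 genes: cry-1 in Δblr-1 was 0.51 with an adjusted p of 0.0267, and phr-1 in WT 1.33. The genes called were 23 with the block and 13 without it for a rise in Δblr-1 light, and 6 against 2 for the difference of Δenv-1 from WT. The first count was 21 with the likelihood ratio test, 8 without the Δblr-2 libraries and 4 to 19 with 1 library left out. The second was 5 with DESeq2, 6 with the likelihood ratio test and 2 to 51 with 1 library left out. Between Δenv-1 and WT, genes called in darkness numbered 432, but 670 with Δenv-1 dark replicate 3, 280 without the Δblr-2 libraries and 87 to 771 with 1 library left out. After light they numbered 1484, but 752 to 2091 with 1 library left out. For Δblr-1 against WT they numbered 921 in darkness, but 421 to 1267, and 1333 lower after light, but 816 to 1557. The few counts of cry-DASH limit its precision.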
